A study of Danio rerio with 10 samples.

Results

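The genes of the immunoproteasome and of class I peptide loading were followed in sorted zebrafish microglia and in the other cells of the brain. The members were the catalytic subunits psmb8, psmb9a, psmb9b and psmb10, the activator subunits psme1 and psme2, the peptide transporter subunits tap1 and tap2a, the class I light chain b2m and the transactivator nlrc5. Of these 10 names, 7 matched a gene symbol of the deposited expression table and 2 were matched by gene identifier, since tap2a (ENSDARG00000036787) is listed there as abcb3l1 and nlrc5 (ENSDARG00000024631) as NLRC5. The gene psmb9b is not analysed here. The 9 genes found are 9 of the 21756 genes of the table, and all of them passed the filter on low values.

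All libraries came from brains of fish aged 3 months that carried Neuro:NTR-mCherry together with mpeg1:GFP. NTR is nitroreductase, an enzyme under whose action metronidazole (MTZ) becomes toxic to the cells that make the enzyme, and mpeg1 is a promoter active in macrophages and microglia. Activated microglia came from fish given MTZ for 24 h (samples 3 and 7) or 48 h (samples 4 and 8), and control microglia came from fish given DMSO (samples 1 and 5 used here). Microglia were the GFP-positive cells sorted after trypsin on ice and a Percoll gradient, and the GFP-negative cells formed the group of other brain cells (samples 2, 6 and 10), for which the labels name no treatment. GFP driven by mpeg1 does not separate microglia from other macrophages of the brain. The labels do not say whether the samples were separate animals or pools, so the spread behind each p-value is that between these samples, which may be technical.

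The proteasome is a barrel of protein subunits that cuts cytosolic proteins into peptides. In mammals the interferon-induced subunits PSMB8, PSMB9 and PSMB10 take the places of the constitutive subunits PSMB5, PSMB6 and PSMB7 to form the immunoproteasome, and PSME1 and PSME2 form a ring that opens the barrel. The transporter TAP1 with TAP2 carries the peptides into the endoplasmic reticulum, where they are loaded onto class I heavy chains bound to the light chain B2M. In mammals NLRC5 is the main transactivator of this set of genes, and mouse microglia are known to express more of these genes after exposure to interferons.

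The libraries held between 6185540 and 12815571 reads. Control sample 9 was not used, since its column holds the same value as 24 h sample 3 in all 21756 genes. This leaves n = 2 control microglia libraries. With that column as 24 h sample 3, fold changes between 48 h and 24 h differed from the authors' by a median of 0.044 over 7288 genes. For pooled activated, 24 h and 48 h against control microglia the median differences were 0.1375, 0.1415 and 0.15. The shared column was used as 24 h sample 3, though the sources used here do not state which sample it belongs to. Statements on whether activated and control libraries overlap rest on that choice. As a control library it would make tap2a (22.0) and b2m (649) overlap between those groups, but not nlrc5 (11.8) or psme2 (175). The 48 h sample 8 stood apart, with a column sum of 1444670, against 728524 to 1071080 in the others, and with 2974 genes at 0 reads. Of 15 microglia and macrophage markers, 14 were called higher in control microglia than in other brain cells, and all 10 neuronal markers were called lower. Of all genes tested 15.1% were called higher there and 20.2% lower. Values are the authors' scaled signal per gene, on which 3 reads are worth 0.439 to 0.687 units depending on the library. Fold changes are differences of log2(signal + 1) with their standard error (SE), which understate the change of genes with low values, and they were tested with limma and Benjamini-Hochberg adjustment over the 21714 genes kept. A gene was called at an adjusted p under 0.05. In bulk samples fewer cells of a type and less RNA per cell cannot be told apart.

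**Figure D1:**
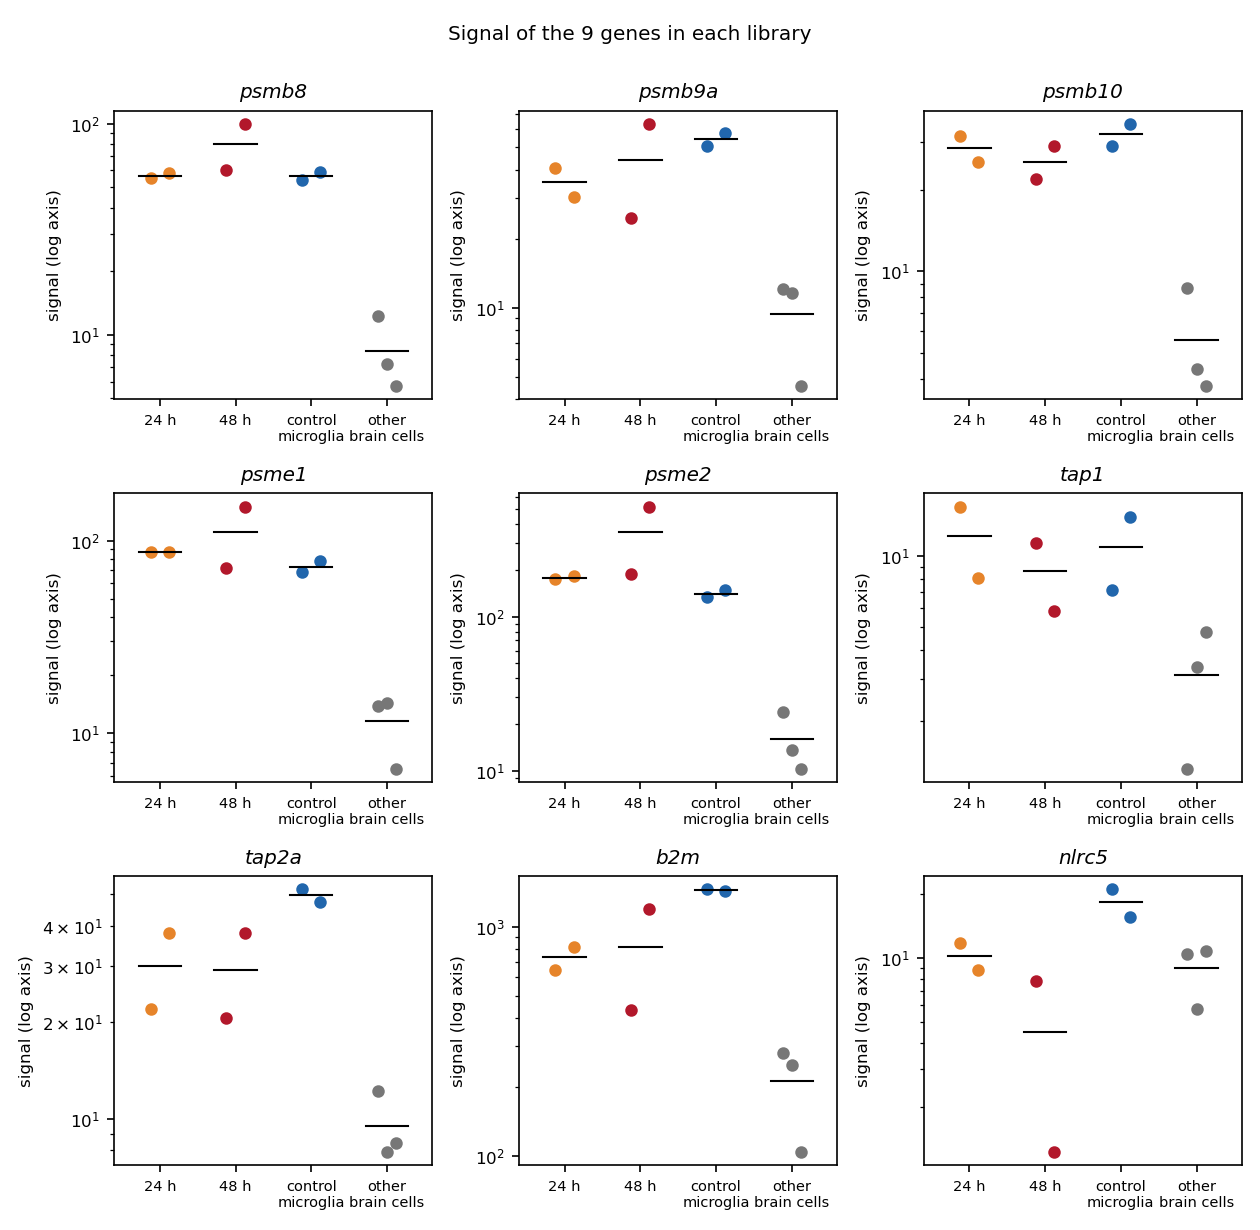
Signal of each of the 9 genes (vertical log axis, authors' scaled signal) in activated microglia at 24 h and 48 h, control microglia and other brain cells. Points are single libraries and lines are group means. In every panel both control microglia libraries lie above all 3 libraries of other brain cells, and for tap2a, b2m and nlrc5 all 4 activated libraries lie below both control libraries.

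Control microglia carried far more signal of these genes than the other cells of the brain. For all 9 genes both control libraries lay above all 3 libraries of other brain cells, and 7 of the 9 were called higher. Of all genes tested 25.9% had both control libraries above those 3, and 15.1% were called higher, 20.2% lower and 35.2% in either direction. The called genes were psmb8, psmb9a, psmb10, psme1, psme2, tap2a and b2m, with log2 fold changes between 2.29 and 3.14. The median over the 9 genes was 2.51, beside a median of -0.14 over all genes tested. The transporter gene tap1 (1.56 ± 0.55, SE) and the transactivator nlrc5 (0.98 ± 0.42, SE) were not called, with limma adjusted p-values of 0.0570 and 0.107.

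Activated microglia also stood above the other brain cells. All 4 activated libraries lay above all 3 libraries of other brain cells in 8 of the 9 genes, and the same 8 genes were called higher. Of all genes tested 24.2% had their activated libraries wholly above other brain cells, and 22.9% were called higher, 27.6% lower and 50.5% in either direction. The exception was nlrc5. The 8 genes spanned log2 fold changes from 1.48 for tap1 to 3.89 for psme2, and the median over the 9 was 1.98, beside -0.05 over all genes tested. In control microglia minus other brain cells, quantile normalization gave a median of 0.06 over all genes tested in place of -0.14, and 8 of the 9 members were then called higher.

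Between activated and control microglia none of the 9 genes was called. Of all genes tested 0.834% were called higher, 0.47% lower and 1.3% in either direction. None reached an unadjusted p under 0.05 either, while 4456 of all 21714 genes tested did. Limma with array weights and limma-voom also called 0 of the 9. The fold changes of the 9 genes ran from -1.45 for nlrc5 to 0.75 for psme2 with a median of -0.25, beside 0.01 over all genes tested. All 4 activated libraries lay above both control libraries for psme2 alone, lay below them for tap2a, b2m and nlrc5, and overlapped them for the other 5 genes. Of all genes tested 15.9% lay wholly above and 15.5% wholly below the controls in the same way. With 4 libraries against 2, a p that misses the threshold does not show that the levels are the same, and the intervals of the fold changes are given beside the genes.

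**Figure D2:**
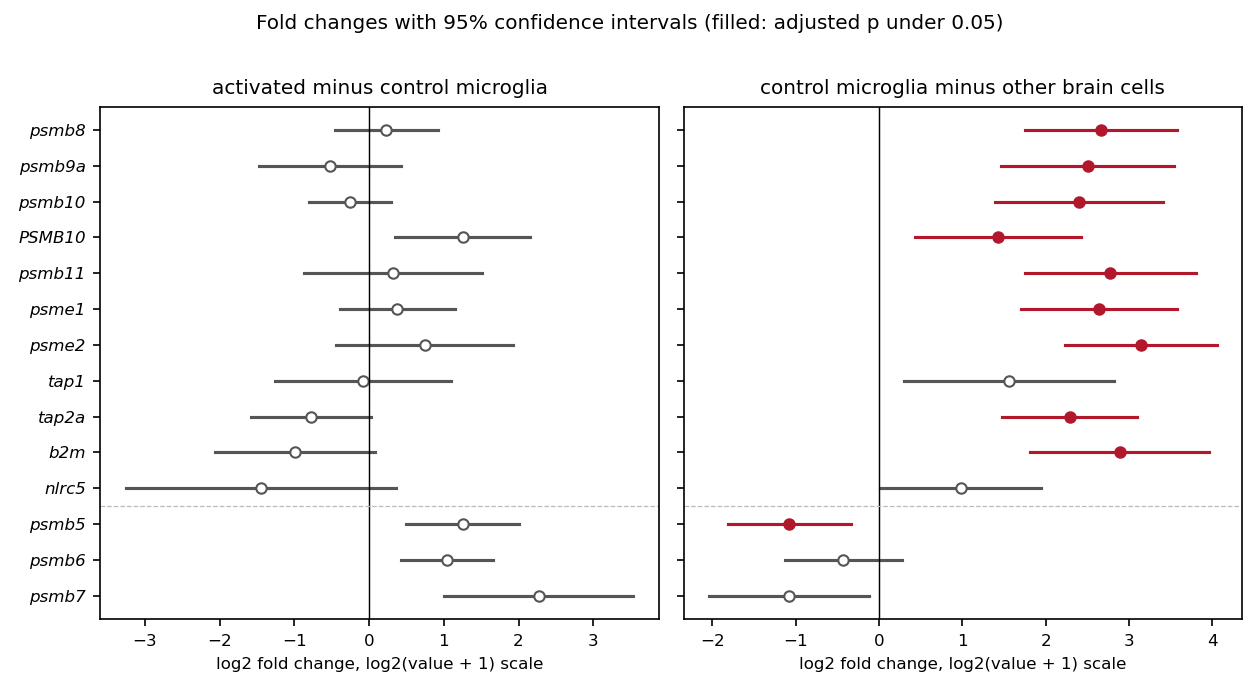
Log2 fold changes with 95% confidence intervals for activated minus control microglia (left) and control microglia minus other brain cells (right). Points are limma estimates, filled where the adjusted p was under 0.05, and the dashed line separates the inducible genes from the constitutive subunits psmb5, psmb6 and psmb7. On the left no point is filled, the 3 constitutive subunits and PSMB10 have intervals above 0, and on the right every point above the dashed line lies above 0.

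The catalytic subunit gene psmb8 (ENSDARG00000001303), whose mammalian product takes the place of PSMB5, had signals of 55.3 and 58.2 at 24 h, 60.2 and 99.8 at 48 h, 53.8 and 59.0 in control microglia, and 12.2, 7.26 and 5.70 in other brain cells. The microglia libraries lay close together except 48 h sample 8, and all of them stood clear of other brain cells. Control microglia exceeded other brain cells by 2.67 ± 0.40 (log2, SE; limma adjusted p = 0.00117), and activated microglia exceeded them by 2.90 ± 0.34 (SE; limma adjusted p = 7.21e-05). Activated minus control microglia came to 0.23 ± 0.28 (SE), with a 95% interval from -0.46 to 0.92 and a limma adjusted p of 0.676. Without 48 h sample 8 that fold change was 0.04.

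The gene psmb9a (ENSDARG00000000656), whose mammalian counterpart takes the place of PSMB6, had signals of 40.6 and 30.4 at 24 h, 24.6 and 63.5 at 48 h, 50.6 and 57.9 in control microglia, and 12.1, 11.6 and 4.54 in other brain cells. Both 24 h libraries lay below both control libraries, while the 48 h libraries lay on either side of them. The fold change of activated minus control microglia was -0.52 ± 0.39 (SE), with an interval from -1.47 to 0.42 and a limma adjusted p of 0.489. Control microglia minus other brain cells was 2.51 ± 0.45 (SE; limma adjusted p = 0.00303). That call was lost when control sample 1 or control sample 5 was left out, with limma adjusted p-values of 0.0548 and 0.0652 at fold changes of 2.60 and 2.41.

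A row named psmb10 and a row named PSMB10 both stand in the deposited table. The row psmb10 (ENSDARG00000001656) carries the symbol psmb13a in the current name table, so it is a paralogue of the gene whose mammalian product takes the place of PSMB7, and it was the one counted as a member. Its signals were 31.6 and 25.3 at 24 h, 21.8 and 28.9 at 48 h, 29.1 and 35.1 in control microglia, and 8.65, 4.34 and 3.75 in other brain cells. The activated and control libraries overlapped, with a fold change of -0.25 ± 0.23 (SE), an interval from -0.80 to 0.30 and a limma adjusted p of 0.561. Against other brain cells, control microglia stood 2.40 ± 0.44 higher (log2, SE; limma adjusted p = 0.00327), a call that ended when control sample 1 (2.53, limma adjusted p = 0.0504) or control sample 5 (2.27, limma adjusted p = 0.0648) was left out, with fold changes of about the same size and 1 control library fewer.

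The separate row PSMB10 (ENSDARG00000043781) is named PSMB10 in the current name table too. Its signals were 34.1 and 43.2 at 24 h, 37.8 and 79.9 at 48 h, 17.2 and 20.3 in control microglia, and 8.26, 3.90 and 7.57 in other brain cells. All 4 activated libraries lay above both control libraries. The fold change of activated minus control microglia was 1.25 ± 0.37 (SE), with an interval from 0.35 to 2.16, an unadjusted p of 0.0147 and a limma adjusted p of 0.140. Without 48 h sample 8 it was 0.99 ± 0.17 (SE), and PSMB10 was called higher (limma adjusted p = 0.0430). In that fit 4.80% of all genes tested were called higher. Between control microglia and other brain cells the difference was 1.43 ± 0.44 (SE; limma adjusted p = 0.0331). A test of the difference between this row and the row psmb10 was not made.

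The row psmb11 (ENSDARG00000031885), which the current name table calls psmb12, is a further catalytic subunit paralogue and no member. It had signals of 88.7 and 111 at 24 h, 77.3 and 248 at 48 h, 83.4 and 105 in control microglia, and 17.5, 17.3 and 6.78 in other brain cells. Control microglia exceeded other brain cells by 2.78 ± 0.45 (SE; limma adjusted p = 0.00170), and activated minus control microglia was 0.32 ± 0.49 (SE; limma adjusted p = 0.741).

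The activator ring is built from the products of psme1 and psme2. The gene psme1 (ENSDARG00000002165) had signals of 87.2 and 87.2 at 24 h, 72.3 and 151 at 48 h, 68.5 and 78.2 in control microglia, and 13.8, 14.3 and 6.49 in other brain cells. Activated and control libraries of psme1 overlapped, with a fold change of 0.38 ± 0.32 (SE), an interval from -0.39 to 1.15 and a limma adjusted p of 0.540. Its partner psme2 (ENSDARG00000033144) had signals of 175 and 183 at 24 h, 189 and 519 at 48 h, 134 and 148 in control microglia, and 24.1, 13.6 and 10.2 in other brain cells. Every activated library of psme2 lay above both control libraries, and 48 h sample 8 lay far above the other 3.

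The fold change of psme2 in activated minus control microglia was 0.75 ± 0.49 (SE), with an interval from -0.44 to 1.93 and a limma adjusted p of 0.435. With 48 h sample 8 left out it was 0.37 ± 0.12 (SE), and the limma adjusted p was 0.124. Reads of psme2 over reads of psme1 were 2.01 and 2.10 at 24 h, 2.62 and 3.45 at 48 h, 1.95 and 1.90 in control microglia, and 1.76, 0.954 and 1.60 in other brain cells. Each activated ratio lay above both control ratios, at 24 h only slightly (2.01 against 1.95), and the 48 h ratios were the highest. These differences were not tested. Against other brain cells, psme2 showed the largest fold change of the 9 genes in control microglia (3.14 ± 0.40, SE; limma adjusted p = 0.000562), and psme1 stood 2.64 ± 0.41 higher (SE; limma adjusted p = 0.00139).

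Of the peptide transporter genes, tap1 rested on few reads, 45 to 206 in each microglia library, against 178 to 334 for tap2a. The signal of tap1 (ENSDARG00000079766) was 16.2 and 8.06 at 24 h, 11.3 and 5.86 at 48 h, 7.18 and 14.7 in control microglia, and 1.24, 3.36 and 4.76 in other brain cells. The spread within each microglia group covered the spread between the groups, and activated minus control microglia was -0.08 ± 0.48 (SE; 95% interval from -1.26 to 1.1; limma adjusted p = 0.943). Activated microglia exceeded other brain cells by 1.48 ± 0.44 (SE; limma adjusted p = 0.0182). Leaving out 24 h sample 3 ended that call (limma adjusted p = 0.0524), and so did leaving out sample 2 of the other brain cells (0.0911).

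The partner gene tap2a had signals of 22.0 and 38.0 at 24 h, 20.6 and 37.8 at 48 h, 51.8 and 47.4 in control microglia, and 12.2, 7.91 and 8.43 in other brain cells. The groups did not overlap at any step, with other brain cells lowest, activated microglia between and control microglia highest. For tap2a control microglia exceeded other brain cells by 2.29 ± 0.36 (SE; limma adjusted p = 0.00143), and activated microglia exceeded them by 1.51 ± 0.33 (SE; limma adjusted p = 0.00380). Activated minus control microglia was -0.78 ± 0.33 (SE), with an interval from -1.58 to 0.02. The unadjusted limma p was 0.0545 and the limma adjusted p was 0.253. Without 48 h sample 8 the fold change was -0.91 ± 0.30 (SE; limma adjusted p = 0.133).

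The class I light chain gene b2m (ENSDARG00000053136) had signals of 649 and 818 at 24 h, 431 and 1195 at 48 h, 1455 and 1425 in control microglia, and 280.3, 248 and 104 in other brain cells. The mean was 773 ± 323 in the 4 activated libraries, against 1440.3 ± 21.3 in the 2 control libraries (SD). The b2m level of control microglia exceeded that of other brain cells by 2.89 ± 0.47 (log2, SE; limma adjusted p = 0.00176). Activated minus control microglia was -0.99 ± 0.44 (SE), with an interval from -2.06 to 0.07 and a limma adjusted p of 0.272. Without 48 h sample 8, the activated library nearest to the controls, it was -1.23 ± 0.32 (SE; limma adjusted p = 0.0819).

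The paralogue b2ml (ENSDARG00000015887), a second light chain gene outside the list of members, had signals of 599.9 and 695 at 24 h, 484 and 591 at 48 h, against 1212 and 1461 in control microglia. The 3 libraries of other brain cells held 443, 563 and 261. Its activated libraries again all lay below both controls, at -1.18 ± 0.26 (SE), with an interval from -1.80 to -0.55 and a limma adjusted p of 0.0795. Reads of b2m over reads of b2ml were 1.08 and 1.18 at 24 h, 0.890 and 2.02 at 48 h, 1.2 and 0.976 in control microglia, and 0.633, 0.441 and 0.397 in other brain cells. Microglia libraries of every group thus held more b2m per b2ml read than any library of other brain cells.

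The transactivator gene nlrc5 was the member that separated microglia least from the rest of the brain. Its signals were 11.8 and 8.77 at 24 h, 7.77 and 1.22 at 48 h, 21.1 and 15.6 in control microglia, and 10.4, 5.74 and 10.8 in other brain cells. The control libraries were the highest of all, and the value of 48 h sample 8 rested on 8 reads. Activated minus control microglia was -1.45 ± 0.74 (SE), with an interval from -3.25 to 0.36 and a limma adjusted p of 0.333. Leaving out 48 h sample 8 gave -0.89 ± 0.27 (SE; limma adjusted p = 0.109). Activated minus other brain cells was -0.46 ± 0.57 (SE; limma adjusted p = 0.528), and it was 0.09 without that library.

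Markers of several other cell types also differed between activated and control microglia, the comparison in which tap2a, b2m and nlrc5 lay below the controls. Of 8 dendritic-like cell markers, 3 were called lower in activated microglia, beside 0.47% of all genes tested, and 7 had a negative fold change. Their summed signal was 254 to 340 at 24 h and 215 to 222 at 48 h, against 1187 to 1411 in control microglia, and it was 271 to 408 in other brain cells. The chemokine gene ccl19a.1 alone held 7.88 to 28.1 in activated libraries, against 653 and 820 in control libraries. The marker ccr7 was low in all microglia, at 1.92 and 0.680 in control libraries and at 0 reads in both 48 h libraries. It held 21.9 to 27.7 in other brain cells. The marker zbtb46 went the other way, at 40.7 to 75.6 in activated libraries, against 36.7 and 32.6 in control libraries. Of 5 erythrocyte markers, 2 were called lower and all 5 had a negative fold change, with sums of 11.8 to 17.0 at 24 h and 6.60 to 10.9 at 48 h, against 48.6 to 249.7 in control microglia.

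None of 8 oligodendrocyte markers was called, but all 8 had a negative fold change with a median of -1.52. Among them 5 had an unadjusted p under 0.05, beside 4456 of all 21714 genes tested. Their sums were 412 to 687 at 24 h and 320.3 to 585 at 48 h, against 1091 to 2122 in control microglia. All 10 neuronal markers had a negative fold change (median -0.69, 0 called), with sums of 74.5 to 76.4 at 24 h and 71.3 to 114 at 48 h, against 155 to 168 in control microglia. Endothelial markers went the other way, with 5 of 6 positive, 1 called higher and a median of 1.24. Of all genes tested 0.834% were called higher. The endothelial sums were 356 to 399 at 24 h and 467 to 494 at 48 h, against 240.5 to 263.9 in control microglia. Most of that endothelial sum was pecam1, and the defining marker cldn5b was at 0 reads in both control libraries and in 2 of the 4 activated libraries. The endothelial marker with a negative fold change was cdh5, at 0.223 to 0.691 in activated libraries, against 1.305 and 2.66 in control libraries. No marker of radial glia, neutrophils, T and NK-like lymphocytes or microglia was called between activated and control microglia, with median fold changes of -0.84, -0.23, -0.43 and 0.86 in that order. Microglia marker folds ran from -3.60 to 2.66, with 7 of 15 at an unadjusted p under 0.05. The marker aif1l held 3.10 to 35.4 in activated libraries, against 159 and 210 in control libraries. Microglia sums, mostly apoeb, were 31598 to 38144 at 24 h, 72011 to 126270 at 48 h and 28285 to 32244 in control microglia. Radial glia sums, mostly glula, were 3180 to 7342 at 24 h, 8613 to 27360 at 48 h and 3936 to 4907 in control microglia. Mitochondrial genes held 1.70% to 5.58% of reads in activated libraries, against 6.69% and 8.99% in control libraries. The part of any of these in the values of the 3 genes was not tested.

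Neither time point differed from control microglia in any of the 9 genes by the test. At 24 h, 0 of the 9 genes were called, where 0.00461% of all genes tested were called, and none had an unadjusted p under 0.05. At 48 h, 0 of the 9 were called, where 0.0% of all genes tested were called, and nlrc5 alone had an unadjusted p under 0.05 (0.0320, fold change -2.12 ± 0.72, SE). Between 48 h and 24 h, 0 of the 9 genes were called, where 0.0% of all genes were called, and none had an unadjusted p under 0.05. Over all 21714 genes tested, 3408 had an unadjusted p under 0.05 at 24 h and 3966 at 48 h against control microglia. For 48 h against 24 h the number was 899. The fold changes of 48 h minus 24 h ran from -1.34 for nlrc5 to 0.81 for psme2. For both genes 48 h sample 8 was the extreme library. These comparisons and the pooled one share the same 2 control libraries.

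The constitutive subunits that the inducible ones replace were measured in the same libraries. The gene psmb5 (ENSDARG00000075445) had signals of 56.3 and 51.6 at 24 h, 33.7 and 63.7 at 48 h, 17.1 and 24.4 in control microglia, and 41.7, 46.3 and 44.7 in other brain cells. Control microglia held less psmb5 than other brain cells (-1.08 ± 0.32, SE; limma adjusted p = 0.0311). Activated minus control microglia was 1.25 ± 0.31 for psmb5 (SE), with an interval from 0.49 to 2.01 and a limma adjusted p of 0.101. All 4 activated libraries lay above both control libraries and overlapped other brain cells.

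The genes psmb6 and psmb7 were also higher in every activated library than in either control. The signal of psmb6 (ENSDARG00000002240) was 60.5 and 54.4 at 24 h, 41.0 and 71.4 at 48 h, 27.0 and 26.1 in control microglia, and 39.9, 35.2 and 33.3 in other brain cells. The signal of psmb7 (ENSDARG00000037962) was 159 and 163 at 24 h, 94.1 and 269.6 at 48 h, 20.3 and 51.4 in control microglia, and 81.3, 68.4 and 60.8 in other brain cells. For both genes every activated library lay above every control library and every library of other brain cells. Control microglia lay below other brain cells in both, but neither difference was called (-0.43 ± 0.31 for psmb6 and -1.08 ± 0.42 for psmb7, SE; limma adjusted p = 0.326 and 0.0777). Activated minus control microglia was 1.04 ± 0.25 for psmb6 (SE; limma adjusted p = 0.0975) and 2.27 ± 0.52 for psmb7 (SE; limma adjusted p = 0.0857). In the authors' deposited table psmb7 had a log2 fold change of 1.82 and an FDR of 0.00548 for activated against control microglia. The other two were not under 0.05 there, with 0.95 (FDR 0.141) for psmb5 and 0.93 (FDR 0.112) for psmb6 in the authors' deposited table. The authors' comparisons are named by group, not by library, so their control libraries may differ from the 2 used here.

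**Figure D3:**
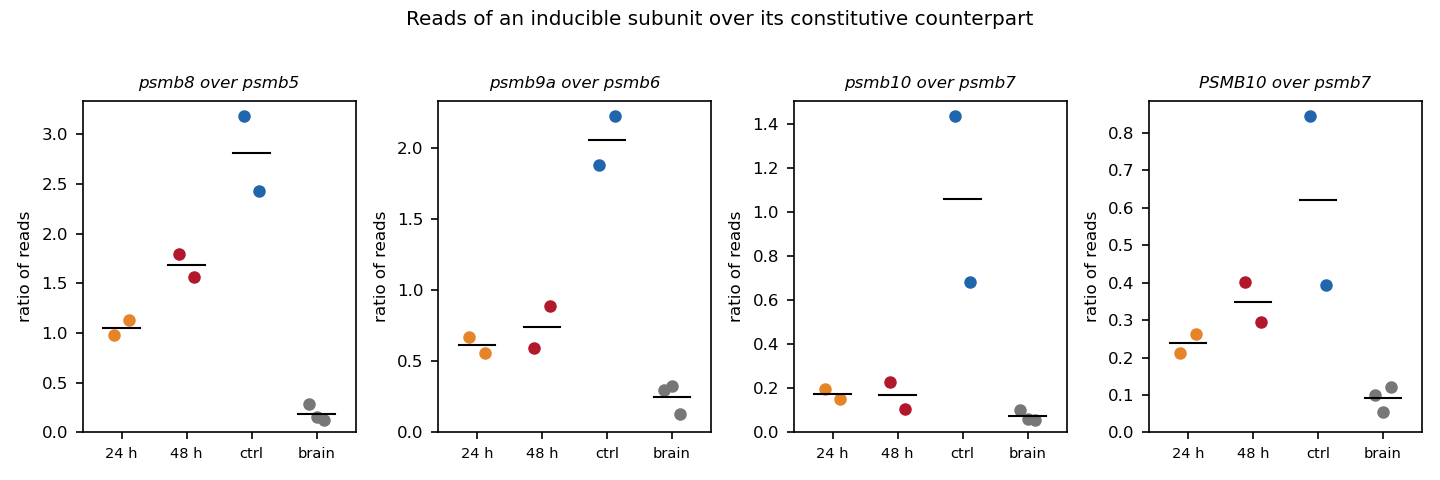
Reads of an inducible catalytic subunit divided by reads of the constitutive subunit it replaces (vertical axis, linear, no unit) in activated microglia at 24 h and 48 h, control microglia (ctrl) and other brain cells (brain). Points are single libraries and lines are group means. For psmb8 over psmb5 the activated libraries lie between 0.982 and 1.79, below the control libraries at 3.18 and 2.43 and above other brain cells.

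The ratio of inducible to constitutive subunit reads within a library does not depend on how libraries were scaled to each other. Reads of psmb8 over reads of psmb5 were 0.982 and 1.13 at 24 h, 1.79 and 1.57 at 48 h, 3.18 and 2.43 in control microglia, and 0.289, 0.153 and 0.123 in other brain cells. Reads of psmb9a over reads of psmb6 were 0.670 and 0.557 at 24 h, 0.597 and 0.889 at 48 h, 1.88 and 2.23 in control microglia, and 0.299, 0.325 and 0.130 in other brain cells. For both pairs the groups did not overlap, and the activated libraries lay between the control libraries and the other brain cells.

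For the row psmb10 over psmb7 the groups did not overlap either, while for the row PSMB10 over psmb7 activated and control libraries overlapped. Reads of the row psmb10 over reads of psmb7 were 0.197 and 0.154 at 24 h, 0.230 and 0.106 at 48 h, 1.44 and 0.682 in control microglia, and 0.104, 0.0603 and 0.0583 in other brain cells. Reads of the row PSMB10 over reads of psmb7 were 0.213 and 0.264 at 24 h and 0.401 and 0.296 at 48 h, against 0.846 and 0.393 in control microglia, so that 48 h sample 4 lay above control sample 5. Reads of psmb11 over reads of psmb6 were 1.47 and 2.05 at 24 h and 1.89 and 3.49 at 48 h, against 3.11 and 4.06 in control microglia. There 48 h sample 8 lay above control sample 1, so these groups overlapped too. Summed over psmb8, psmb9a, psmb10, PSMB10 and psmb11, reads per read of psmb5, psmb6 and psmb7 together came to 0.904 and 0.996 at 24 h and 1.31 and 1.29 at 48 h. The sum ratio was 3.66 and 2.73 in control microglia and 0.355, 0.290 and 0.197 in other brain cells. An exact permutation test of 4 libraries against 2 cannot give a two-sided p below 0.133, so the ratios are given as a description.

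**Figure D4:**
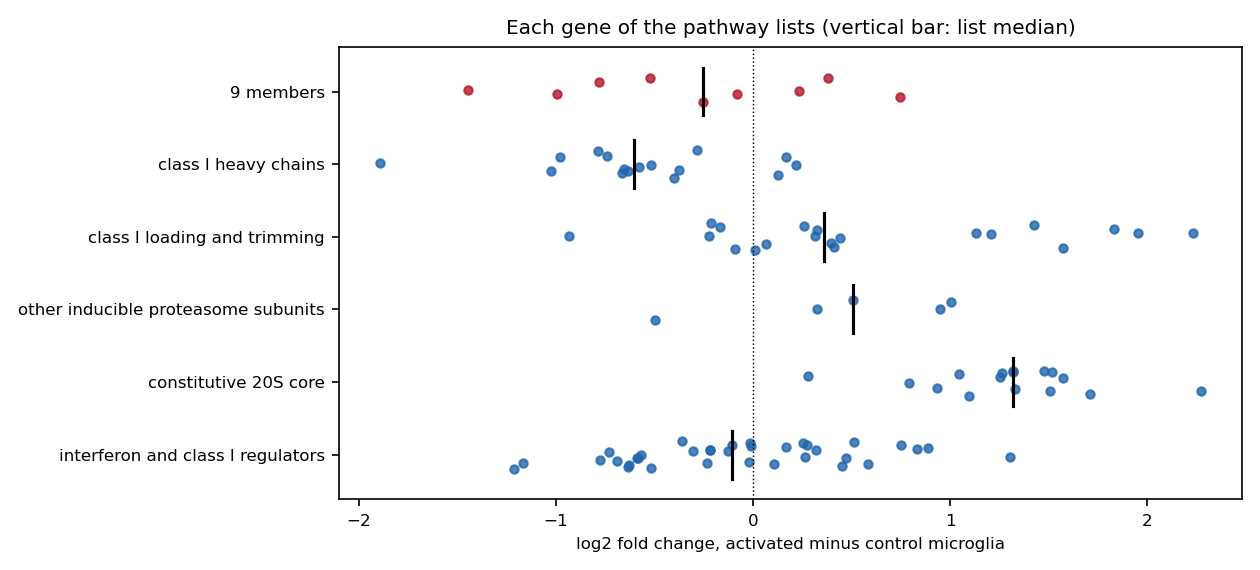
Log2 fold change of activated minus control microglia (horizontal axis) for each gene of the 9 members and of the lists of class I heavy chains, class I loading and trimming genes, other inducible subunits, constitutive core subunits and interferon and class I regulators. Points are genes and vertical bars are list medians. The list of other inducible subunits also holds proteasome activators and an assembly factor. The constitutive core lies wholly to the right of 0 with a median of 1.32, and the heavy chains lie mostly to the left with a median of -0.61.

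Genes whose symbol starts with mhc1, taken here as class I heavy chain genes, were 16 in number. Whether the product of each binds peptide was not examined. Between control microglia and other brain cells 11 of the 16 were called higher and 0 lower, beside 15.1% and 20.2% of all genes tested. The median over the 16 was 2.49. The largest fold changes were those of mhc1lda (5.49 ± 0.54, SE; limma adjusted p = 0.000196), mhc1lia (4.93 ± 0.50, SE; limma adjusted p = 0.000230) and mhc1uka (3.43 ± 0.34, SE; limma adjusted p = 0.000199). The gene mhc1uka had signals of 83.0 and 129.9 at 24 h, 70.2 and 87.8 at 48 h, 124 and 160.0 in control microglia, and 15.4, 10.6 and 10.9 in other brain cells. The activated libraries of mhc1uka reached into the control range through 24 h sample 7 alone.

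Between activated and control microglia 0 of the 16 heavy chain genes were called. Among them 2 had an unadjusted p under 0.05, beside 4456 of all 21714 genes tested. A negative fold change was found in 13, with a median of -0.61 beside 0.01 over all genes tested. At 24 h all 16 had a negative fold change (median -0.80), and in 12 of them both 24 h libraries lay below both controls, as they did in 25.6% of all genes tested. At 48 h the median was -0.43, and it was -0.80 with 48 h sample 8 left out. Without 48 h sample 8, mhc1zca (-0.77 ± 0.13, SE; limma adjusted p = 0.0418) and 1 of the 2 rows named mhc1zaa (-0.92 ± 0.16, SE; limma adjusted p = 0.0442) were called lower in activated microglia, where 2.33% of all genes tested were called lower. Class I heavy chain genes form a family of related sequences, so 50-nucleotide reads may be split between the closest of them. How such reads were counted is not given in the sources used here.

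Genes of class I loading and peptide trimming were 20 in number. That list also held the proteasome subunit rows psmb11 and psmb11b. The row psmb11 is counted among the other inducible subunits as well. Between control microglia and other brain cells 8 were called higher and 0 lower, beside 15.1% and 20.2% of all genes tested. The median over the 20 was 1.07. The endoplasmic reticulum aminopeptidases erap1b (2.85 ± 0.46, SE; limma adjusted p = 0.00165) and erap2 (2.57 ± 0.39, SE; limma adjusted p = 0.00120), which trim peptides, led them with psmb11. Between activated and other brain cells 14 were called higher and 1 lower, beside 22.9% and 27.6% of all genes tested. The lower one was the lysosomal peptide transporter abcb9 (-1.17 ± 0.37, SE, limma adjusted p = 0.0241).

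Between activated and control microglia 0 of these 20 genes were called, and 7 had an unadjusted p under 0.05, beside 4456 of all 21714 genes tested. The chaperone genes of the loading complex and 1 peptidase came closest, and they are named here after their values were seen. The cytosolic peptidase blmh had signals of 40.8 and 48.4 at 24 h, 36.2 and 48.1 at 48 h, against 17.4 and 18.8 in control microglia (1.21 ± 0.20, SE; limma adjusted p = 0.0564). Calreticulin (calr) held 240.3 and 215 at 24 h and 190.1 and 364 at 48 h, against 67.9 and 97.8 in control microglia (1.57 ± 0.32, SE; limma adjusted p = 0.0728). Calnexin (canx) held 1313 and 1227 at 24 h and 1285 and 647 at 48 h, against 207 and 371 in control microglia (1.95 ± 0.42, SE; limma adjusted p = 0.0782). In all 3 genes every activated library lay above both controls. Without 48 h sample 8 blmh, calr, calr3a and canx were called higher (limma adjusted p between 0.0349 and 0.0475), where 4.80% of all genes tested were called higher. In the authors' deposited table calr (FDR 0.0304), calr3a (FDR 0.0432) and calr3b (FDR 0.00893) were higher for pooled activated against control microglia. The rest of this list had no FDR under 0.05 there, beside 1240 of all genes.

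The product of the tapasin gene tapbp bridges the transporter and the class I molecule. The row tapbp (ENSDARG00000079402) held 26.5 and 20.7 at 24 h, 19.9 and 53.9 at 48 h, 25.3 and 19.4 in control microglia, and 3.54, 1.96 and 5.55 in other brain cells. Control microglia exceeded other brain cells by 2.38 ± 0.47 (SE; limma adjusted p = 0.00477), and the activated libraries overlapped the controls (0.31 ± 0.44, SE; limma adjusted p = 0.721).

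The constitutive core of the proteasome, 16 genes, held the subunits common to both forms of the barrel and those that the inducible ones replace. Between activated and control microglia all 16 had a positive fold change with a median of 1.32, and 0 were called. Among them 12 had an unadjusted p under 0.05, beside 4456 of all 21714 genes tested. In 15 of the 16 genes every activated library lay above both controls, beside 15.9% of all genes tested. For this comparison the authors' deposited table has an FDR under 0.05 for psma4, psma8, psmb1 and psmb7, beside 1240 of all genes. At 48 h it has psma1, psma2, psma3, psma4, psma5, psma8, psmb1 and psmb7, beside 909 of all genes, and at 24 h no core gene. Without 48 h sample 8, 7 of the 16 were called higher in activated microglia, among them psma4 (1.21 ± 0.16, SE; limma adjusted p = 0.0356) and psmb1 (1.18 ± 0.20, SE; limma adjusted p = 0.0406), beside 4.80% of all genes tested. Between control microglia and other brain cells 1 core gene was called higher, psma6l (2.42 ± 0.47, SE; limma adjusted p = 0.00441), and 1 lower, psmb5. Of all genes tested 15.1% were called higher and 20.2% lower in that comparison. Between activated microglia and other brain cells 11 of the 16 were called higher and 0 lower, beside 22.9% and 27.6% of all genes tested. The list of other inducible subunits held 5 genes, of which psmb11 alone is a catalytic subunit. The others are proteasome activators or an assembly factor. In activated minus control microglia the median of this list was 0.51 with 0 calls, beside 1.3% of all genes tested. Both lists hold genes that were chosen with earlier results of these data known.

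Interferon signalling and the regulators of class I genes were covered by 35 genes. Between control microglia and other brain cells 15 were called higher and 2 lower, beside 15.1% and 20.2% of all genes tested. The called genes were led by irf8, a transcription factor of the macrophage lineage (6.80 ± 0.36, SE; limma adjusted p = 3.18e-05), ciita, the transactivator of class II genes (5.05 ± 0.44, SE; limma adjusted p = 0.000118), and ifngr1, a receptor chain for interferon gamma (3.32 ± 0.53, SE; limma adjusted p = 0.00165). The lower ones were the ligand gene ifng1-2 (-2.45 ± 0.47, SE; limma adjusted p = 0.00393) and the class II and class I promoter factor rfx5 (-1.30 ± 0.44, SE; limma adjusted p = 0.0469). The gene ifng1-2 was at 0 reads in both control microglia libraries and in both 48 h libraries.

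Between activated and control microglia 0 of the 35 regulators were called, and 14 had a positive fold change, with a median of -0.11. Among them 4 had an unadjusted p under 0.05, beside 4456 of all 21714 genes tested. The signal transducer stat1b had signals of 49.1 and 204 at 24 h, 128 and 249.7 at 48 h, 176 and 155 in control microglia, and 30.3, 26.6 and 16.9 in other brain cells. In stat1b control microglia exceeded other brain cells by 2.74 ± 0.35 (SE; limma adjusted p = 0.000571), and activated libraries spread on both sides of the controls (-0.30 ± 0.65, SE; limma adjusted p = 0.821). Its paralogue stat1a held 100.4 to 155 in activated libraries, 133 and 144 in control libraries and 121 to 183 in other brain cells, and was called in none of these comparisons. The interferon regulatory factor irf1b held 73.0 and 64.2 at 24 h, 83.2 and 85.8 at 48 h, 136 and 70.7 in control microglia, and 33.8, 13.9 and 29.4 in other brain cells. In irf1b control microglia exceeded other brain cells by 1.98 ± 0.46 (SE; limma adjusted p = 0.0105), and activated minus control microglia was -0.36 ± 0.30 (SE; limma adjusted p = 0.532). Its paralogue irf1a stayed below 1.6 units in every library. The regulator ciita, not called here, held 59.5 and 43.2 at 24 h and 91.1 and 70.7 at 48 h, against 218 and 102 in control microglia. In the authors' deposited table ciita had a log2 fold change of -1.48 (FDR 0.00444) pooled and -1.805 (FDR 0.0232) at 24 h against control microglia. Its FDR at 48 h was 0.134 there, and no other of the 35 regulators had an FDR under 0.05 in these comparisons.

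In RefSeq's annotation of assembly GRCz12tu, a later build than the GRCz10 named for the deposited data, several of these genes are neighbours. In that order tapbp.1, mhc1uka, tapbp.2, mhc1uba, psmb8a, psmb13a, psmb12, psmb9a and tap2a follow each other with no other protein-coding gene between them. The gene model psmb13a, the row psmb10 here, overlaps 4 of the others there, namely psmb8a, psmb12, psmb9a and tap2a. Whether the counting used strand is not given in the sources used here, so the split of reads among these rows is uncertain. Within this run psmb8, psmb10, psmb11, psmb9a, mhc1uka and mhc1uba overlapped between activated and control microglia. The gene tap2a lay wholly below the controls, as did 15.5% of all genes tested.

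By the root mean square difference of centred log2(signal + 1) over the 9 libraries, among 14329 genes, the gene most like psme1 was zbtb2a (0.170), followed by psmb11 (0.203) and rac2 (0.222). The genes most like psmb8 were snx10b (0.171), ctns (0.172) and arpc2 (0.181). Those most like psmb9a were asah1a (0.242), mob1a (0.242) and the class I heavy chain gene mhc1zea (0.252), and the nearest to b2m was tescb (0.224). Nearest genes of psmb10 and psme2 were si:dkey-27p18.3 (0.175) and fuca2 (0.203), and those of tap1, tap2a and nlrc5 were c1galt1b (0.241), PPHLN1 (2 of 2) (0.145) and ccser1 (0.273).

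For control microglia against other brain cells, the authors' deposited table gives an FDR under 0.05 for 8 of the 9 members, with tap1 at a log2 fold change of 1.99 and an FDR of 0.00711. The member without was nlrc5 (log2 fold change 0.49, FDR 0.696 in the authors' deposited table). Over all genes the authors' deposited table has 9303 under 0.05 in this comparison, 3894 higher and 5409 lower. For activated against control microglia, and for each time point against control microglia, no member had an FDR under 0.05 in the authors' deposited table. Over all genes that table has 1240 under 0.05 in the pooled comparison, 249 at 24 h and 909 at 48 h. The pooled fold changes of the members in the authors' deposited table ran from -0.91 for nlrc5 to 0.71 for psme2.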

How the data were processed

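RNA-seq libraries of 50-nucleotide reads were made from sorted cells with a low-input cDNA kit, per the labels' protocols. TopHat2 2.0.5, SAMtools 0.1.18, edgeR (no version) and build GRCz10 are named in the submitters' processing notes; the counting tool, annotation and scaling are not given in the sources used here. The deposited table holds a scaled signal per gene and library. A constant (0.223) shared by all columns stands for 0 reads, and each value exceeds it by a multiple of the column's step (tolerance 0.05 steps), which gives the reads. Because of that constant the values as deposited are not CPM. A fit with edgeR was not run here, while limma-voom was run on the recovered reads. A second table deposited by the authors holds their log2 fold changes and FDR (adjusted p-values).

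Genes with a signal of at least 1 in at least 2 of the 9 libraries were kept. Fits used log2(signal + 1) and limma 3.58.1 (R 4.3.3, statmod 1.5.0; lmFit, eBayes with a trend, two-sided). Pooled activated against control microglia, and each microglia group against other brain cells, were fitted on their own libraries; the time points shared 1 fit with the controls. The script was tested on simulated data. Intervals of fold changes are 95% limits from the same fit. SD or SE is given with means and with most fold changes of single genes in the main fits. Medians, ranges, the authors' fold changes and many from alternative settings are given without it. Further tools were pandas 2.3.3, numpy 2.4.6, matplotlib 3.10.9 and Python 3.11.15.

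Control sample 9 was left out because its deposited column equals that of 24 h sample 3. Which of the 2 samples the column belongs to is not stated in the sources used here. Alternatives were the column as deposited, both copies left out, pseudocounts of 0.25 and 4, no filter, a filter at 5, quantile normalization, all libraries in 1 fit, array weights, limma-voom on reads from the steps, calls at an adjusted p under 0.01, and each library left out in turn. The counts of the pathway lists under these settings were added after seeing the data.

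The members, the pathway lists and the markers were chosen with earlier results of these data known. All members found are described, beside psmb5, psmb6, psmb7, stat1a, stat1b, irf1a and irf1b. Of each list up to 3 called genes with the largest and the smallest fold change could be named. Other genes named were chosen after their values were seen. They were PSMB10, psmb11, psmb11b, b2ml, tapbp, mhc1zca, mhc1zaa, blmh, calr, calr3a, calr3b, canx, psma1, psma2, psma3, psma4, psma5, psma8, psmb1, ccl19a.1, ccr7, zbtb46, aif1l, apoeb, glula, pecam1, cdh5 and cldn5b. The most similar genes were the nearest by the measure given, among genes with a mean signal of at least 5. Gene identifiers were matched through a table of current names.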

Additional observations from a re-analysis of the deposited data

Results flagged for a closer look

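Among 19 genes checked in the 4 activated microglia libraries, 2 had a library that stood apart from the other 3. For independent groups of like samples, chance alone gives about 1 such case in 20 groups. That rate does not apply directly here, since the libraries span the 24 h and 48 h time points and all genes share them. The signal of psmb8 was 99.8 in 48 h sample 8, against 55.3 to 60.2 in the other activated libraries, a gap of 0.888 of the whole range. The signal of psme2 was 519 in the same library, against 175 to 189 in the others, a gap of 0.959 of the range. The limit for 4 samples is 0.829. This library also had a column sum of 1444670, above every other, and the lowest share of mitochondrial reads (1.70%). The part of these properties in the 2 values was not tested.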

How the results depend on the processing

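With 2 control libraries and 2 libraries per time point, the intervals of the fold changes within microglia are wide, and nlrc5 and tap1 rest on few reads. No paired analysis was possible because the labels give every sample a number of its own and name no animal, day or set shared between groups. The edgeR alternative was not run. For 48 h against 24 h no gene of all was called under any setting, and at 24 h at most 4 were. Several settings called no gene for pooled activated or for 48 h against control microglia. Where no gene was called, a count of 0 members was fixed in advance and shows no stability. The number of members called was 0 under every alternative for pooled activated microglia and each time point against control microglia. It was 0 for 48 h against 24 h as well. It ranged from 5 to 8 with single libraries left out for control microglia against other brain cells, and from 7 to 8 for activated microglia against other brain cells; under the other settings it was 7 or 8 in both.

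The count of all genes called between activated and control microglia, 283, depended on the settings far more. It was 0 with the column of control sample 9 as deposited, 0 with both copies left out, 0 at an adjusted p under 0.01, 46 by limma-voom, 466 with all libraries in 1 fit, 613 with quantile normalization, 651 with the filter at 5 and 1118 with array weights, and it ran from 0 to 1550 with single libraries left out. The value 1550 came without 48 h sample 8, and 0 came without either 24 h sample or 48 h sample 4. For 48 h against control microglia the count was 302 with all libraries in 1 fit, 110 with the filter at 5 and 60 with quantile normalization, against 0. At 24 h it was 1, and 0 to 4 elsewhere. For control microglia against other brain cells it was 7648, and 3987 or 4196 without control sample 1 or 5.

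Of the changes of sign, all were in folds that were not called. In activated minus control microglia psmb8 was -0.0020 under quantile normalization and tap1 0.093 with array weights. In 24 h minus control microglia psmb8 was -0.14 under quantile normalization, and tap1 was -0.32 with both copies left out and -0.060 as deposited. In 48 h minus 24 h tap1 was 0.020 with both copies left out. With single libraries left out, tap1 ran from -0.55 to 0.39 in activated minus control, from -0.33 to 0.61 at 24 h and from -0.77 to 0.17 at 48 h minus control, and from -0.90 to 0.020 in 48 h minus 24 h. At 24 h minus control psmb8 ran from -0.056 to 0.073. At 48 h minus control psmb9a ran from -1.11 to 0.23 and psme1 from -0.018 to 1.03. In 48 h minus 24 h psmb9a ran from -0.50 to 0.83, psmb10 from -0.36 to 0.031, psme1 from -0.27 to 0.78, tap2a from -0.47 to 0.37 and b2m from -0.76 to 0.71. In activated minus other brain cells nlrc5 ran from -0.75 to 0.088. In control microglia minus other brain cells tap1 was called, by limma, with array weights (2.24), quantile normalization (2.11), the column as deposited (1.76), all libraries in 1 fit (1.56), the filter at 5 (1.56) and without other brain cell sample 10 (1.86). The causes were not tested.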
